A study of Populus tremula x Populus alba with 64 samples.

Results

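The cell wall and carbohydrate transcripts of hybrid poplar described here are 62 transcript rows, from 60 genes, of the 62007 rows and 37173 genes that were counted. They were chosen by product name: every row of the study's own list of transcripts, as far as its first 1998 rows, whose name holds a keyword for pectin, xyloglucan, expansin, cellulose, glucan, xylan, laccase, sucrose, trehalose, starch or a glycosidase. That list begins with 42 genes, 2 of which are members, and after them it runs in the order of the study's p-value for auxin enhancer against its control in roots at 11 days. The members were therefore selected on measured values of that contrast, and its values are given below as a description, without a test. The last member stands at place 1936 of the list, a pectinesterase/pectinesterase inhibitor 51 transcript (gene 112328147) with a log2 fold change of -0.56 ± 0.28 (SE) in that contrast, and places after 1998 were not used here. By name, 8 members act on pectin, 9 on xyloglucan or are expansins, 11 on cellulose, glucan or xylan, 13 are laccases, 13 belong to sucrose, trehalose and starch metabolism and 6 are other glycosidases. The keywords also took in 2 members that are not wall or sugar-store genes by name, zeatin O-xylosyltransferase (gene 7473599), which conjugates a cytokinin, and glucosidase 2 subunit beta (gene 7494606), which belongs to glycoprotein processing in the endoplasmic reticulum.

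The plants were 4 to 5 week old rooted cuttings of 1 clone, the Populus tremula × P. alba hybrid INRA 717-1B4, so no comparison reaches beyond that genotype, and all had been rooted with rooting powder before treatment. AE plants received a foliar spray of auxin enhancers, 3 µM naphthalene acetic acid with 4.5 µM indole-3-butyric acid. AI plants received 100 µM naphthylphthalamic acid, an inhibitor of polar auxin transport, and both agents were made up in 1 N KOH, which alone was sprayed on the control-AE and control-AI plants. Roots and stems were sampled at times labelled 24 h and 11 days, which gives 16 groups and 64 polyA RNA libraries. The study calls its replicates biological, but the labels do not say which plants each library came from.

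Results rest on the 50 libraries with at least 1000000 counts, which held between 3947526 and 21094004 counts, since the other 14 held between 93182 and 545250. For 2 libraries of control-AE roots at 11 days, replicates 2 and 3, the depth label went against the count, and the count was followed. Deep libraries numbered 28 from roots and 22 from stems, with 2 to 6 in each group. The tissue labels were checked on 8 photosynthesis transcripts, which summed to between 10.7 and 108 CPM (reads of a row per 1000000 of the scaled library) in roots and to between 1020 and 2609 CPM in stems, with no overlap. Among control-AE roots at 11 days, replicate 5 stood apart from replicates 2 and 4 for many members, and changes named below that rest on it are given with and without it.

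Plant cells grow inside a wall of cellulose microfibrils, made at the plasma membrane by cellulose synthase complexes, that are tied together by xyloglucan, xylan and pectin. Xyloglucan endotransglucosylase/hydrolases (XTHs) cut and rejoin xyloglucan, expansins loosen the wall without cutting it, and pectinesterases remove methyl groups from pectin and so change how stiff it is. In wood the secondary wall is reinforced with lignin, whose precursors laccases oxidize, and in Arabidopsis LAC4 and LAC17 take part in lignification of the stem. Sucrose made in leaves is carried to roots and stems, where sucrose synthase and invertases open it for wall building and for starch. Trehalose-6-phosphate, made by trehalose-phosphate synthases and removed by trehalose-phosphate phosphatases (TPPs), reports the sucrose supply of the cell. Auxin acts on wall loosening and on the formation of lateral roots and vessels, and this is the setting in which AE and AI plants were compared.

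Levels of different members were compared after scaling for transcript length, as RPKM (CPM divided by transcript length in kilobases). Cellulose synthase A catalytic subunit 1 (gene 7459022) stood highest of all members in roots, with a median of 173 RPKM over 28 root libraries and 84.1 RPKM over 22 stem libraries. XTH 6 (gene 7465538) stood highest of all members in stems, with medians of 4.29 RPKM in roots and 449 RPKM in stems. Beta-galactosidase 1 (gene 18096747), one of the enzymes that trim galactose from wall polymers, had medians of 99.3 RPKM in roots and 77.7 RPKM in stems. Laccase-4 (gene 7478550) led the laccases, with 56.8 RPKM in roots and 16.9 RPKM in stems. In 3 classes the leading member differed between the tissues. XTH B (gene 7491445) led its class in roots, with 142 RPKM in roots and 61.7 RPKM in stems. Pectinesterase inhibitor 7 (gene 7482899) led the pectin class in stems, with 27.4 RPKM in roots and 90.8 RPKM in stems, and pectinesterase/pectinesterase inhibitor 51 (gene 7486096) led it in roots, with 48.6 RPKM in roots and 73.3 RPKM in stems. Sucrose transport protein SUC8 (gene 7467435), which loads sucrose across membranes, led the sugar class in stems, with 15.3 RPKM in roots and 99.9 RPKM in stems, and trehalose-phosphate synthase 11 (gene 7465995) led it in roots, with 20.6 RPKM in roots and 14.9 RPKM in stems. Of the members that only their keyword brought in, glucosidase 2 subunit beta stood higher, with 10.7 RPKM in roots and 15.2 RPKM in stems.

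**Figure D1:**
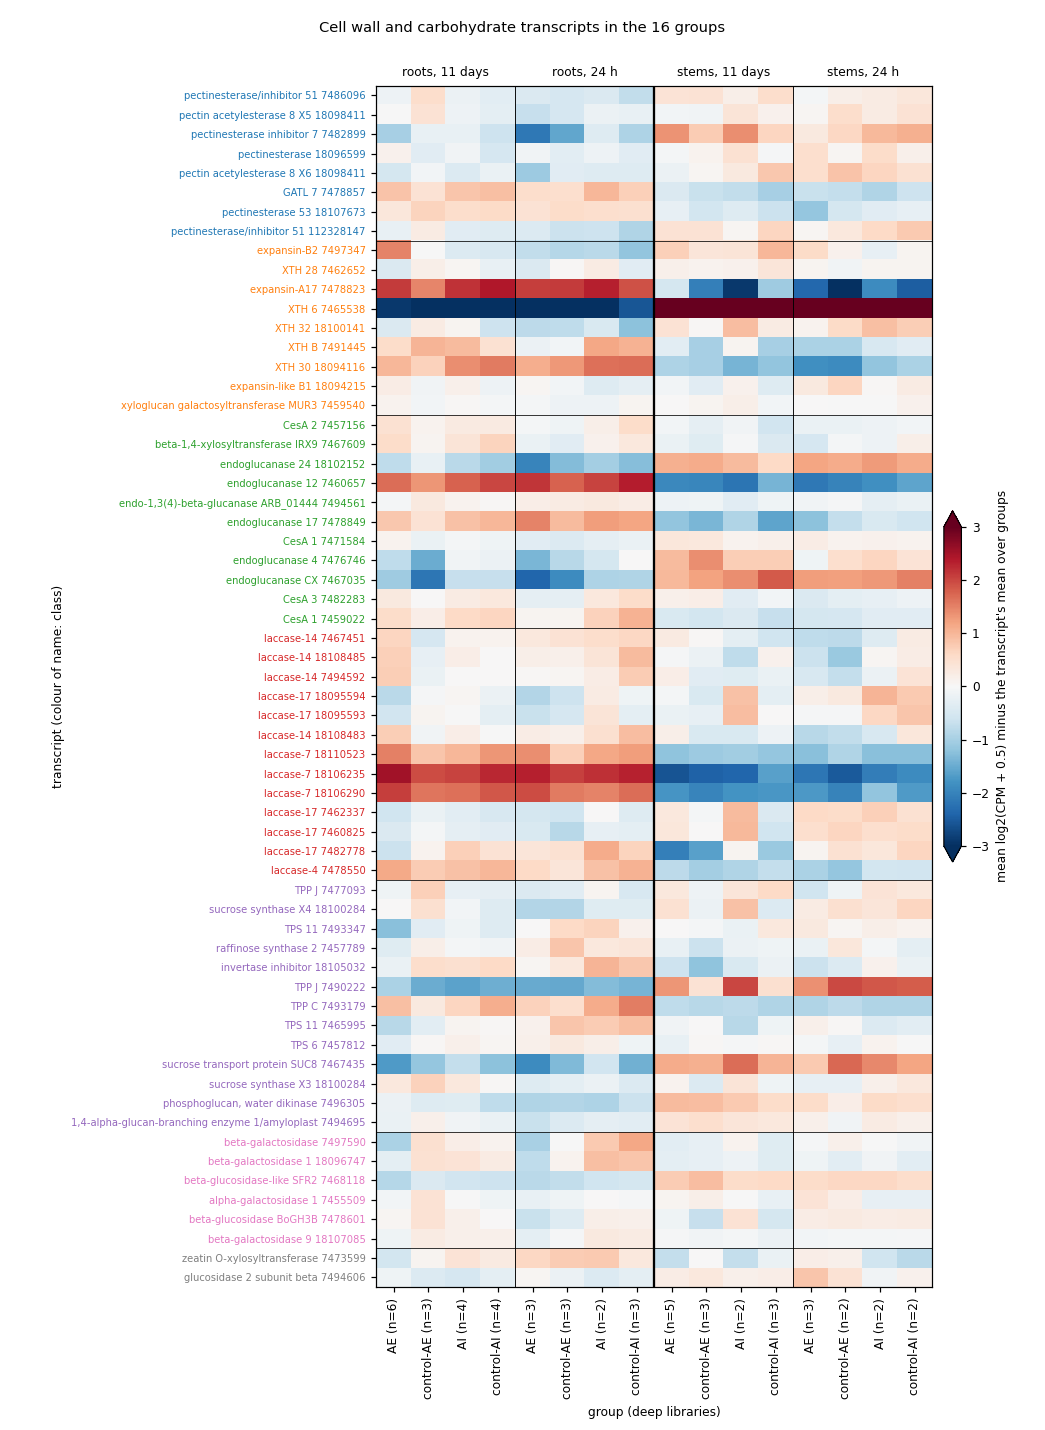
Mean over libraries of log2 of CPM, with an offset of 0.5, for each of the 62 members (rows, ordered by class) in each of the 16 groups (columns), centered on the row. Root and stem columns part for XTH 6, the laccase-7 genes and expansin-A17.

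In AE-roots at 11 days, the contrast on which the members were selected, 33 members were lower and 29 were higher than in control-AE roots. Their log2 fold changes ran between -2.95 and 1.90, with 15 beyond 1 in either direction, a smallest fall of -0.34 and a smallest rise of 0.18. Lower values gathered in the glycosidases, where 6 of 6 were lower, in sugar metabolism, where 10 of 13 were lower, and in pectin, where 6 of 8 were lower. Higher values gathered in the cellulose, glucan and xylan class, where 9 of 11 were higher, in xyloglucan and expansins, where 6 of 9 were higher, and in laccases, where 8 of 13 were higher. The 6 AE-roots lay wholly below the 3 control-AE roots for 5 members, against 1.21% of all 25207 rows tested, and wholly above them for 5 members, against 1.29%. Because this contrast chose the members, nothing is read from these counts. Values in parentheses after CPM are log2 fold changes with their standard errors. In bulk tissue, fewer cells of a type and less RNA per cell cannot be told apart.

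Of the pectin rows, 3 lay wholly below control-AE roots and 1 wholly above. The last was pectinesterase (gene 18096599), which had 5.53, 6.46 and 7.08 CPM in AE-roots, against 3.14, 5.28 and 5.20 CPM in control-AE roots (0.47 ± 0.17). Pectinesterase inhibitor 7, whose family binds pectinesterases and blocks them, had 15.3, 23.4 and 28.4 CPM in AE-roots as lowest, median and highest of 6, against 43.5, 33.5 and 39.6 CPM in control-AE roots, which is -0.77 ± 0.20 (SE) as a log2 fold change. Pectinesterase/pectinesterase inhibitor 51 (gene 7486096), one of the 2 members among the first 42 genes, had 90.5, 118 and 135 CPM in AE-roots, against 185, 159 and 206 CPM in control-AE roots (-0.69 ± 0.15). For both genes every AE library lay below every control-AE library. Pectin acetylesterase 8 (gene 18098411), which removes acetyl groups from pectin, was listed as 2 transcript variants, and X6 had 0.756, 1.06 and 1.20 CPM in AE-roots, against 1.38, 0.871 and 2.77 CPM in control-AE roots (-0.76 ± 0.35). Variant X5 had 4.08, 4.29 and 5.53 CPM in AE-roots, against 6.15, 5.71 and 7.37 CPM in control-AE roots (-0.50 ± 0.15), so X5 separated the groups while X6 overlapped. SUC8 also separated the groups, with 23.7, 26.4 and 29.1 CPM in AE-roots and 37.8, 39.1 and 39.5 CPM in control-AE roots (-0.55 ± 0.088).

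Several of the largest falls rested on replicate 5 of control-AE. Beta-galactosidase (gene 7497590), the other member among the first 42 genes, had 50.2, 69.2 and 129 CPM in AE-roots, against 36.8, 119 and 1534 CPM in control-AE roots of replicates 2, 4 and 5. Replicate 5 alone was far above the AE-roots, and the log2 fold change was -2.95 ± 0.84 with it and -0.09 without it. Beta-galactosidase 1 had 188, 243 and 403 CPM in AE-roots, against 209, 281 and 1416 CPM in control-AE roots, and its log2 fold change was -1.26 ± 0.51 with replicate 5 and 0.13 without it. The trehalose-phosphate synthase 11 genes 7493347 and 7465995, of the class of synthases that in Arabidopsis is thought to signal more than to make the sugar, followed the same pattern. Gene 7493347 had 10.6, 14.7 and 15.8 CPM in AE-roots, against 9.53, 13.9 and 125 CPM in control-AE roots (-1.87 ± 0.63, and 0.21 without replicate 5), and gene 7465995 had 23.5, 27.7 and 37.8 CPM in AE-roots, against 20.1, 20.4 and 187 CPM in control-AE roots (-1.35 ± 0.60, and 0.57 without it). For all of these genes the sign without replicate 5 turned positive or the difference came near 0. XTH 28 (gene 7462652) had 47.9, 58.7 and 61.7 CPM in AE-roots, against 59.0, 61.2 and 183 CPM in control-AE roots (-0.83 ± 0.31, and -0.07 without replicate 5). Zeatin O-xylosyltransferase had 1.63, 2.03 and 3.20 CPM in AE-roots, against 1.63, 3.05 and 8.93 CPM in control-AE roots (-1.07 ± 0.44, and -0.13 without it).

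Over the 33 lower members, replicate 5 was the highest control-AE root for 21, lay more than 2 times above the mean of replicates 2 and 4 for 12 and more than 5 times above it for 5. Without it 26 of the 33 stayed lower, and their median log2 fold change was -0.38, against -0.62 with it. Over the 29 higher members, replicate 5 was the lowest control-AE root for 16, and without it all 29 stayed higher, with a median of 0.44, against 0.51 with it. The laccase-17 genes depended on another library. All 5 had their highest control-AE value in replicate 4, and gene 18095593 had 0.693, 0.875 and 1.28 CPM in AE-roots, against 1.00, 4.12 and 1.11 CPM in control-AE roots (-1.23 ± 0.43, and -0.22 without replicate 4). The other 4 had log2 fold changes of -1.13 (gene 18095594), -1.11 (gene 7482778), -0.54 (gene 7460825) and -0.48 (gene 7462337), and without replicate 4 these were -0.11, 0.04, 0.05 and -0.02. Roots of control-AI plants at the same time give a second view of the level under the KOH spray alone. The control-AI median lay nearer to the AE median than the control-AE median did for 17 of the 33 lower and 16 of the 29 higher members. The AE and control-AE values chose the members, so nothing is read from these counts either.

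Among the members that were higher in AE-roots, the largest rise was that of expansin-B2 (gene 7497347), of the beta-expansin family. Its 6 AE-roots had 35.9, 50.9 and 271 CPM as lowest, median and highest, against 42.02, 16.8 and 23.1 CPM in control-AE roots (1.90 ± 0.75), and the ranges overlapped. Laccase-14 (gene 7467451) had 1.54, 3.67 and 6.29 CPM in AE-roots, against 1.38, 1.31 and 1.41 CPM in control-AE roots (1.51 ± 0.39), and the lowest AE-root exceeded the highest control-AE root. Endoglucanase CX (gene 7467035), of the family of enzymes that cut beta-glucan chains, had 1.16, 4.81 and 10.1 CPM in AE-roots, against 0.753, 4.02 and 1.77 CPM in control-AE roots (1.24 ± 0.66), with overlap. Endoglucanase 4 (gene 7476746) had 2.33, 5.10 and 7.51 CPM in AE-roots, against 2.13, 4.65 and 1.51 CPM in control-AE roots (0.77 ± 0.45). The other laccase-14 genes, 7494592, 18108483 and 18108485, had log2 fold changes of 1.10, 0.97 and 1.12. Glucosidase 2 subunit beta was the smaller change of the 2 members outside the classes, at 0.26 ± 0.13. The plot of roots at 11 days shows the single libraries behind these values.

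**Figure D2:**
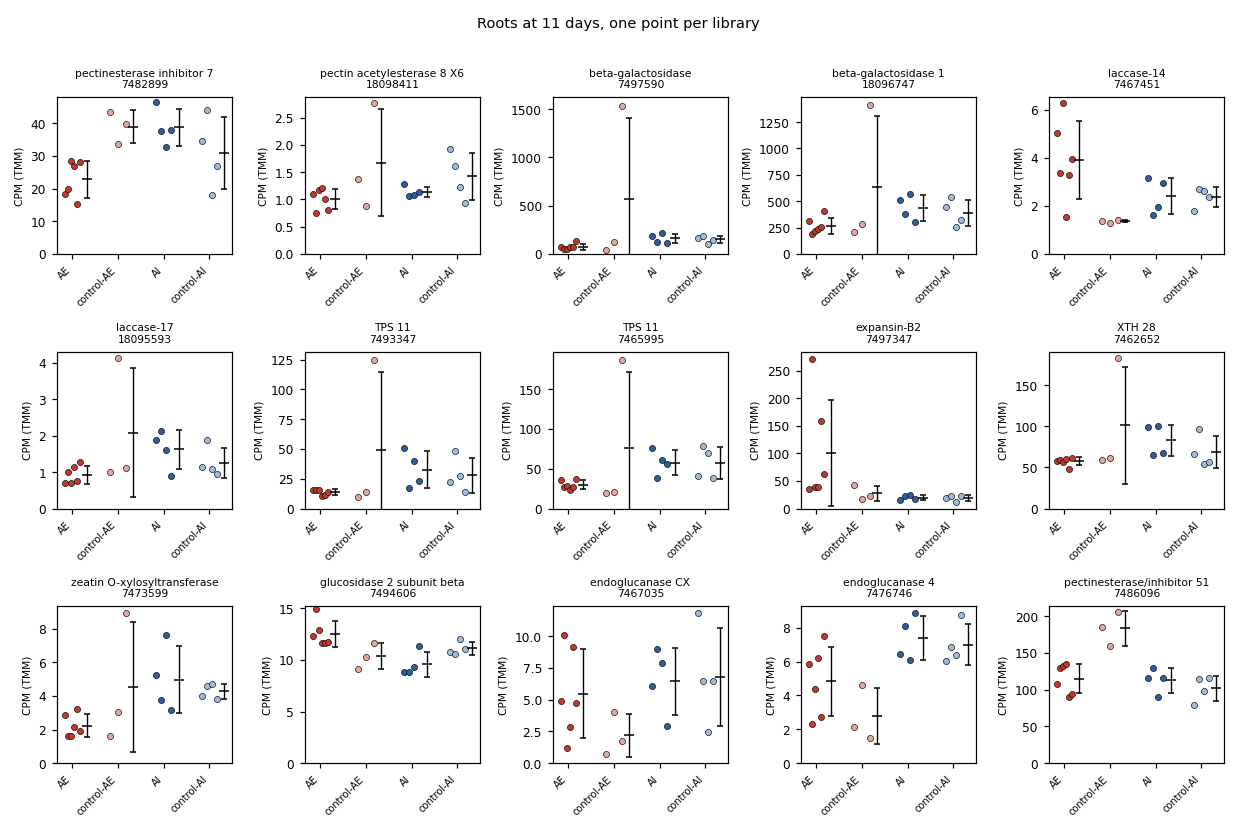
CPM per library (linear scale, 1 point each) in roots at 11 days of AE, control-AE, AI and control-AI plants, for the members with the largest changes in their class. Bars beside the points give the mean and SD of each group. Replicate 5 of control-AE is the single high point of beta-galactosidase at 1534 CPM and of beta-galactosidase 1 at 1416 CPM, far above every AE-root.

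Treatment was next compared in the groups that took no part in choosing the members. No member was called at an adjusted p under 0.05 by edgeR's quasi-likelihood test in any of these 7 comparisons, and the same test called 0.0% of all rows in 6 of them and 0.0127% in AI stems at 11 days. In AI-roots at 11 days, against control-AI roots, 5 of 62 members (8.06%) had an unadjusted p under 0.05. The share was 3.89% of 22879 rows and 7.15% of the other rows of the study's list. The smallest adjusted p of a member was 0.985 and DESeq2 called 0 members. Of the 62, 43 had a positive fold change, beside 11723 of 22879 rows. The median log2 fold change over members was 0.09, beside 0.01 over all rows. Phosphoglucan, water dikinase (gene 7496305), which primes starch for breakdown, had 42.8, 48.7, 41.7 and 42.4 CPM in AI-roots, against 33.1, 34.2, 31.1 and 34.3 CPM in control-AI roots (0.41 ± 0.086), and XTH 32 (gene 18100141) had 54.9, 64.3, 67.0 and 60.8 CPM in AI-roots, against 32.97, 57.1, 25.7 and 40.0 CPM in control-AI roots (0.68 ± 0.20). TPP C (gene 7493179) had 0.850, 0.898, 1.07 and 1.06 CPM in AI-roots, against 1.63, 1.10, 1.38 and 1.87 CPM in control-AI roots (-0.62 ± 0.25). The first and the last of these 3 had ranges that did not overlap, and XTH 32 had 1 control-AI root within the AI range. Over all 62 members AI-roots lay above for 2 and below for 4, beside 0.9% and 1.74% of all rows.

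In AE-roots at 24 h, against control-AE roots, 6 of the 61 members tested (9.84%) had an unadjusted p under 0.05, and DESeq2 called 0. The share was 3.65% of 22107 rows and 6.12% of the other rows of the study's list. The median over members was -0.05, beside 0.00 over all rows. All 6 glycosidases, at -0.93 to -0.10, and 11 of 13 sugar members were lower in AE-roots without passing the test. Of the laccases 10 of 13 were higher, also without passing it. Over all rows 11035 of 22107 were lower. Beta-galactosidase 1 had 193, 134 and 249.9 CPM in AE-roots, against 244, 343 and 480.4 CPM in control-AE roots (-0.90 ± 0.30). Beta-galactosidase 9 (gene 18107085) had 134, 128 and 128 CPM in AE-roots, against 159, 153 and 159 CPM in control-AE roots (-0.28 ± 0.11). Beta-galactosidase (gene 7497590) had 95.6, 38.4 and 87.0 CPM in AE-roots, against 91.2, 166 and 161 CPM in control-AE roots (-0.93 ± 0.36). Only beta-galactosidase 9 had ranges apart among these 3, since 1 AE-root of each of the others reached the control-AE range. Over all 62 members AE-roots lay above for 2 and below for 3, beside 4.2% and 3.67% of all rows.

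In AI-roots at 24 h, with 2 deep libraries, 8 of 62 members (12.9%) had an unadjusted p under 0.05. The share was 7.0% of 23021 rows and 13.25% of the other rows of the study's list. The smallest adjusted p was 0.707 and DESeq2 called 0. The median over members was 0.02, beside 0.00 over all rows. All 8 pectin rows, from 7 genes, were higher in AI-roots without passing the test, with log2 fold changes of 0.02 to 0.56. In the cellulose, glucan and xylan class 8 of 11 were lower, also without passing it. Over all rows 11607 of 23021 were higher. SUC8 had 74.0 and 46.1 CPM in AI-roots, against 29.0, 26.2 and 41.1 CPM in control-AI roots (0.90 ± 0.25). Expansin-A17 (gene 7478823), of the alpha-expansin family, had 31.0 and 31.4 CPM in AI-roots, against 20.6, 25.2 and 23.3 CPM in control-AI roots (0.43 ± 0.13). XTH 28 had 99.4 and 85.3 CPM in AI-roots, against 57.6, 51.0 and 77.7 CPM in control-AI roots (0.57 ± 0.19). For all 3 the 2 AI-roots lay above the 3 control-AI roots. Over all 62 members the AI-roots lay above for 5 and below for 6, beside 12.8% and 11.8% of all rows.

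In AI stems at 11 days, again with 2 deep libraries, against 3 of control-AI, 9 of 58 members (15.5%) had an unadjusted p under 0.05, beside 9.02% of 23613 rows. The ranges lay apart with AI above for 18 members and with AI below for 10, where all rows gave 13.7% above and 14.3% below. Laccase-17 (gene 7462337) had 36.7 and 45.2 CPM in AI stems, against 13.9, 14.3 and 17.5 CPM in control-AI stems, a log2 fold change of 1.43 ± 0.21 with an adjusted p of 0.161. TPP J (gene 7490222), which removes trehalose-6-phosphate, had 64.8 and 51.7 CPM in AI stems, against 17.2, 18.5 and 24.8 CPM in control-AI stems (1.53 ± 0.22, adjusted p = 0.161). Expansin-A17 had 0.214 and 0.506 CPM in AI stems, against 1.55, 3.52 and 2.74 CPM in control-AI stems (-2.80 ± 0.61, adjusted p = 0.284). All 3 missed the threshold in edgeR with its low-count filter. The call depended on the tool and on that filter. DESeq2 called 4 members, these 3 and laccase-17 gene 7460825, beside 1.56% of all rows. Without the filter edgeR called TPP J gene 7490222 and the laccase-17 genes 7462337 and 7460825, and the rows it called in all are given under processing. A fit over all groups of 11-day stems called laccase-17 gene 7462337 alone.

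In AE stems at 11 days, against control-AE stems, 5 of 57 members (8.77%) had an unadjusted p under 0.05, and DESeq2 called 0. The share was 3.66% of 23395 rows and 5.42% of the other rows of the study's list. XTH B (gene 7491445) had 125, 126, 90.4, 86.9 and 68.4 CPM in AE stems, against 48.4, 67.5 and 67.3 CPM in control-AE stems (0.70 ± 0.22), and every AE stem was the higher. Such a separation was found for 1 member above and 0 below, beside 1.27% and 1.3% of all rows. TPP J had 47.0, 22.1, 38.2, 37.5 and 40.5 CPM in AE stems, against 17.3, 14.6 and 28.5 CPM in control-AE stems (0.88 ± 0.28), with 1 AE stem inside the control range. Expansin-A17 had 2.03, 12.7, 1.34, 2.63 and 7.55 CPM in AE stems, against 1.26, 0.472 and 1.48 CPM in control-AE stems (2.40 ± 0.79), with 1 AE stem inside the control range. The medians over members in 11-day stems were 0.09 under AE, beside 0.00 over all rows, and 0.09 under AI, beside -0.01 over all rows.

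In stems at 24 h few members stood out. In AE stems 1 of 57 members (1.75%) had an unadjusted p under 0.05, beside 3.54% of 23077 rows, and in AI stems 2 of 56 (3.57%), beside 1.55% of 22127 rows, with 0 members called by DESeq2 in both. Among the other rows of the study's list the shares were 5.54% under AE and 2.24% under AI. The median over members was -0.03 under AE and -0.04 under AI, beside values between -0.01 and 0.00 over all rows. Glucosidase 2 subunit beta had 23.3, 22.8 and 28.8 CPM in AE stems, against 18.6 and 19.3 CPM in control-AE stems (0.40 ± 0.16). Galactinol-sucrose galactosyltransferase 2 (gene 7457789), a raffinose synthase by name, had 9.75, 7.13 and 10.2 CPM in AE stems, against 11.6 and 15.4 CPM in control-AE stems (-0.57 ± 0.24), and the other TPP J (gene 7477093) had 15.2, 14.7 and 12.96 CPM in AE stems, against 16.5 and 23.9 CPM in control-AE stems (-0.49 ± 0.21). These 3 had ranges apart. Over all 62 members AE stems lay above for 3 and below for 9, beside 8.47% and 8.27% of all rows. Laccase-14 gene 7494592 had 5.56 and 5.58 CPM in AI stems, against 10.6 and 6.95 CPM in control-AI stems (-0.66 ± 0.27), and gene 18108483 had 4.29 and 5.26 CPM in AI stems, against 13.3 and 5.60 CPM in control-AI stems (-0.98 ± 0.41). Pectinesterase (gene 18096599) had 8.46 and 9.09 CPM in AI stems, against 5.99 and 6.95 CPM in control-AI stems (0.43 ± 0.23), and the ranges of these 3 lay apart too. Without replicate 3 of control-AI 2 members were called in AI stems, expansin-B2 and laccase-14 gene 18108483, together with 505 rows in all, where the full set called 0. That fit sets the 2 AI stems against a single control-AI stem, which is assumed to vary as they do, so the calls describe that library.

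**Figure D3:**
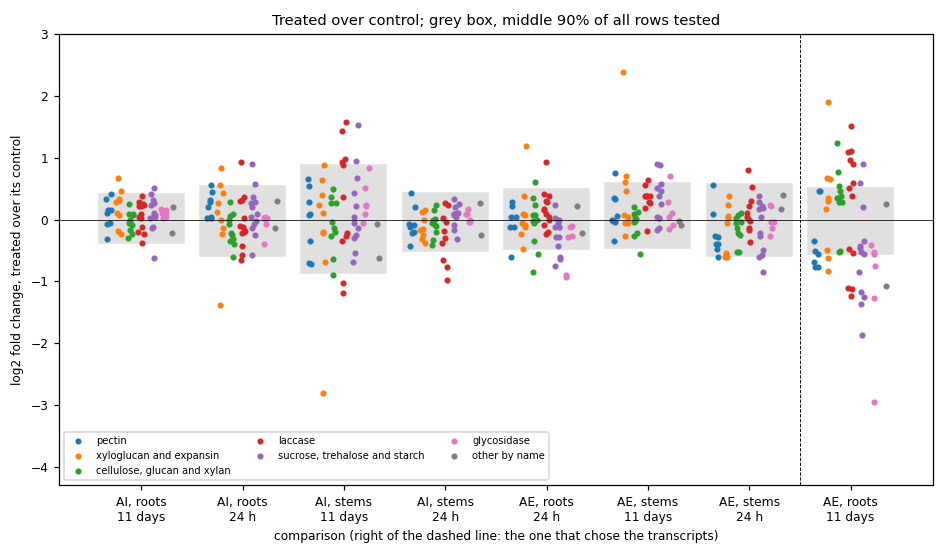
Log2 fold change of each member, treated over its control, in the 8 treatment comparisons (1 point per member, colored by class), with a grey box over the middle 90% of all rows tested. The 7 comparisons left of the dashed line were tested and called 0 members, and the comparison right of it chose the members.

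Whether AE and AI moved the members differently was tested as a difference of differences, AE over its control less AI over its control. No member was called in the 3 sets of groups, in which 0.0% of all rows were called. Unadjusted p-values under 0.05 were found for 7 of 62 members (11.3%) in 24-h roots, beside 4.49% of 23964 rows, for 5 of 58 (8.62%) in 11-day stems, beside 3.21% of 25036 rows, and for 1 of 58 (1.72%) in 24-h stems, beside 3.13% of 23695 rows. Among the other rows of the study's list the shares were 8.81%, 3.76% and 4.2% in the same order. DESeq2 called 0 members in 24-h roots and in 24-h stems and called 1 in 11-day stems, beside 0.0366% of all rows. That member was expansin-A17, whose change was 2.40 under AE and -2.80 under AI on the log2 scale, a difference of 5.20 ± 1.27 that did not pass edgeR's test.

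The 2 sets of sprayed controls differed from each other in roots at 24 h, although both received 1 N KOH. Of 62 members, 0 were higher and 7 were lower in control-AE than in control-AI roots (11.3%), where edgeR called 6.56% of 22241 rows and 4.02% as lower, and DESeq2 called 11 members, beside 10.6% of all rows. Of the other rows of the study's list edgeR called 7.2%. The 3 control-AE roots lay below the 3 control-AI roots for 21 members, beside 16.3% of all rows. These control-AE roots are also the controls of the AE-roots at 24 h above, so both comparisons share them. Over all rows 10671 of 22241 had a negative fold change. The median over members was -0.26, beside 0.02 over all rows, and all 13 laccases, all 6 glycosidases and 9 of 11 members of the cellulose class had negative fold changes, of which those named next passed the test.

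Cellulose synthases led by level. Subunit 1 (gene 7459022), which in Arabidopsis serves the primary wall, had 546, 461 and 394 CPM in control-AE roots, against 998, 870.2 and 812 CPM in control-AI roots (-0.92 ± 0.15, adjusted p = 0.0192). Subunit 3 (gene 7482283), its partner there, had 28.1, 26.4 and 21.1 CPM in control-AE roots, against 50.3, 45.5 and 37.7 CPM in control-AI roots (-0.81 ± 0.15, adjusted p = 0.0247). No library of one arm reached the other for either subunit. Laccase-4 had 99.4, 76.3 and 66.7 CPM in control-AE roots, against 121, 147 and 119 CPM in control-AI roots (-0.66 ± 0.16, adjusted p = 0.0481). XTH B had 84.8, 137 and 123 CPM in control-AE roots, against 295, 201 and 260.2 CPM in control-AI roots (-1.12 ± 0.20, adjusted p = 0.0232). XTH 6, low in every root, had 2.88, 1.49 and 3.42 CPM in control-AE roots, against 15.7, 9.74 and 5.10 CPM in control-AI roots (-1.95 ± 0.45, adjusted p = 0.0414). These 3 also did not overlap between the arms, and neither did the remaining 2. Beta-galactosidase (gene 7497590) had 91.2, 166 and 161 CPM in control-AE roots, against 206, 396 and 345 CPM in control-AI roots (-1.17 ± 0.28, adjusted p = 0.0497), and beta-glucosidase BoGH3B (gene 7478601) had 62.5, 75.1 and 76.7 CPM in control-AE roots, against 114, 102 and 96.8 CPM in control-AI roots (-0.53 ± 0.11, adjusted p = 0.0358). The 7 calls thus spread over 4 of the classes, with glycosidases, cellulose synthases and XTHs giving 2 each.

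The calls between the control arms leaned on single libraries. Without replicate 1, 2 or 3 of control-AE 6, 0 and 1 members were called, and without replicate 1, 2 or 3 of control-AI 0, 2 and 6, while the calls over all rows, 1458 with every library, ran between 29 and 1518. Of the 6 without replicate 1 of control-AE, 1 was higher in control-AE roots. Transcripts chosen by name as markers of the secondary wall moved with this difference. Names came only from the study's list, and whether each gene serves the secondary wall here was not tested. The sum of 3 of them, the fasciclin-like arabinogalactan genes FLA12 and FLA2 and COBRA-like 4, ran between 370 and 600 CPM in control-AE roots and between 1032 and 1276 CPM in control-AI roots, and their part in the result was not tested. The same sum at 24 h was 267 to 622 CPM in AE-roots and 923 to 1117 CPM in AI-roots. In 11-day stems, by contrast, the same control arms gave 0 called members and 0.0% of all rows. Unadjusted p-values under 0.05 were found for 5 of 57 members (8.77%), beside 3.18% of 22237 rows and 5.31% of the other rows of the study's list. DESeq2 called 0 members. There an invertase inhibitor (gene 18105032) had 1.89, 2.48 and 2.96 CPM in control-AE stems, against 5.19, 6.60 and 4.92 CPM in control-AI stems (-1.15 ± 0.30). Alpha-galactosidase 1 (gene 7455509) had 51.1, 47.9 and 46.1 CPM in control-AE stems, against 35.2, 38.3 and 35.9 CPM in control-AI stems (0.39 ± 0.14), and TPP J gene 7477093 had 26.5, 14.4 and 19.1 CPM in control-AE stems, against 30.5, 47.3 and 24.5 CPM in control-AI stems (-0.79 ± 0.31), and of these 3 only the last overlapped. Control-AE stems lay above for 3 members and below for 4, beside 3.27% and 3.41% of all rows tested. Of those below, laccase-7 gene 18106235 fell under the low-count filter and was not tested.

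**Figure D4:**
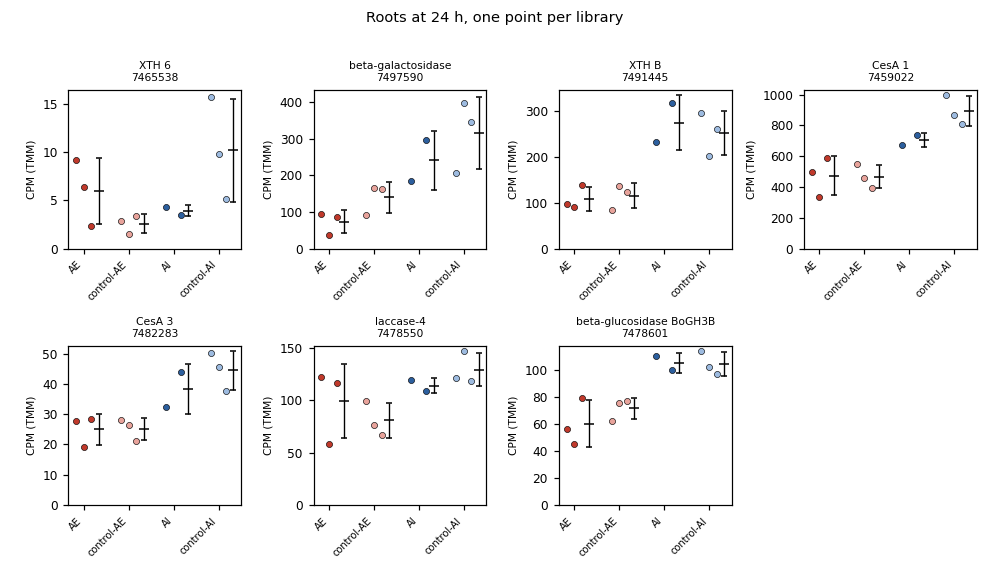
CPM per library (linear scale, 1 point each) in roots at 24 h of AE, control-AE, AI and control-AI plants, for the 7 members called between the control arms. Bars beside the points give the mean and SD of each group. For cellulose synthase A subunit 1 the control-AE roots sit between 394 and 546 CPM and the control-AI roots between 812 and 998 CPM.

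The members parted most between tissues. In control-AI plants at 11 days, 17 of 62 members were higher and 15 were lower in roots than in stems, so 51.6% were called, where edgeR called 40.5% of 23997 rows, 20.0% higher and 20.5% lower, and 53.3% of the other rows of the study's list. In control plants of both arms at 24 h, 20 were higher and 27 were lower, so 75.8% were called, beside 56.7% of 25129 rows, 28.3% higher and 28.4% lower, and 63.4% of the other rows of the list. The share of members called was thus slightly under that of the list they came from at 11 days and above it at 24 h. The difference at 24 h was not tested, and some members are near copies or variants of each other. The medians over members were 0.10 and -0.08, beside 0.00 at both times over all rows, and 0.10 also with the 1 gene that had no count in stems set at its bound. No library is shared between the 2 times: 15 members were higher at both, 15 were lower at both and 0 changed direction, and the 30 shared calls are 93.8% of those at 11 days and 63.8% of those at 24 h. At 24 h control-AE plants alone gave 35 called members, beside 39.1% of 23981 rows, and control-AI plants alone gave 42, beside 47.5% of 23667 rows. AI plants at 11 days gave 18 higher and 21 lower members, beside 46.1% of 24825 rows called in either direction, of which 14 and 13 were called in the same direction in control-AI plants, and 0 in the opposite one. Over all 28 root and 22 stem libraries, every root lay above every stem for 9 members (14.5%), beside 6.55% of all rows, and below for 6 (9.68%), beside 6.89%. The list was ordered by a contrast in roots, so a row without counts in roots could not enter it. The rest of the list was not counted in this way, and nothing is read from the difference. The summed photosynthesis transcripts given above part the tissues in the same libraries. The sum of the 3 wall markers named above ran between 267 and 1276 CPM in roots and between 73.5 and 128 CPM in stems. The part of these transcripts in the calls was not tested.

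Values in parentheses or after "at" in the account of the tissues are log2 fold changes, root over stem, with their standard errors, and where 2 are given the first is for 11 days and the other for 24 h. Laccases gave 5 higher and 0 lower members in roots at 11 days, and 7 higher and 4 lower at 24 h. Laccase-7 gene 18106235 had 23.6, 26.0, 27.6 and 33.1 CPM in roots at 11 days, against 1.99, 1.10 and 1.18 CPM in stems (4.24 ± 0.27), and 21.0 to 32.8 CPM in roots at 24 h, against 0.381 to 1.10 CPM in stems (5.04 ± 0.22). Laccase-7 gene 18106290 had 7.32, 8.24, 10.2 and 9.52 CPM in roots at 11 days, against 0.442, 0.220 and 0.124 CPM in stems (5.11 ± 0.40, and 4.98 ± 0.43 at 24 h). The remaining laccase-7, gene 18110523, was near absent from stems, with 127 counts over 4 root libraries and 2 over 3 stem libraries at 11 days, a ratio of 37.4 with an exact 95% counting interval of 10.1 to 312. At 24 h it had 119 counts over 6 root libraries and 3 over 4 stem libraries, a ratio of 24.0 (8.03 to 118). The laccase-7 members were thus all higher in roots at both times, and laccase-7 genes outside the list were not examined. Laccase-4 was also higher in roots, at 1.71 ± 0.21 and 1.56 ± 0.15. The laccase-17 genes that were called at 24 h were lower in roots, at -1.22 (gene 7460825), -1.12 (gene 18095593), -0.99 (gene 7462337) and -0.92 (gene 18095594), and none of these 4 was called at 11 days, where their fold changes ran between -0.59 and 0.15.

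The xyloglucan and expansin class gave 3 higher and 3 lower members in roots at 11 days, and 3 and 4 at 24 h. XTH 6 had 7.03, 5.44, 3.07 and 4.85 CPM in roots at 11 days, against 465, 591 and 402 CPM in stems (-6.58 ± 0.29), and 1.49 to 15.7 CPM in roots at 24 h, against 1487, 642, 479 and 439 CPM in stems (-7.07 ± 0.64). XTH 30 (gene 18094116) ran the other way, with 123, 136, 128 and 131 CPM in roots at 11 days, against 18.4, 16.5 and 21.7 CPM in stems (2.76 ± 0.15, and 2.93 ± 0.16 at 24 h). Expansin-A17 had 41.99, 32.4, 30.0 and 27.2 CPM in roots at 11 days, against 1.55, 3.52 and 2.74 CPM in stems (3.69 ± 0.30, and 5.93 ± 0.37 at 24 h). Enzymes of the same XTH family thus stood on both sides. Expansin-B2 was lower in roots, at -1.58 ± 0.31 at 11 days and -1.20 ± 0.33 at 24 h, and XTH 32 was lower, at -0.87 ± 0.28 and -1.68 ± 0.30.

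In the cellulose, glucan and xylan class 5 members were higher and 3 lower in roots at 11 days, and 4 and 4 at 24 h. Endoglucanase 12 (gene 7460657) had 216, 212, 209 and 233 CPM in roots at 11 days, against 22.6, 12.3 and 28.3 CPM in stems (3.33 ± 0.26, and 3.84 ± 0.23 at 24 h). Endoglucanase 17 (gene 7478849) had 146 counts over 4 root libraries and 2 over 3 stem libraries at 11 days, a ratio of 43.0 (11.7 to 358), and a log2 fold change of 2.38 ± 0.28 at 24 h. Cellulose synthase A subunit 1 (gene 7459022) was higher in roots, at 1.33 ± 0.15 and 0.97 ± 0.16. Endoglucanases were found on the stem side as well, since endoglucanase CX was lower in roots, at -2.68 ± 0.53 and -3.05 ± 0.38 and endoglucanase 24 (gene 18102152) at -1.72 ± 0.21 and -2.48 ± 0.25.

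Among sugar genes 2 were higher and 4 lower in roots at 11 days, and 3 and 7 at 24 h. TPP C had 1.63, 1.10, 1.38 and 1.87 CPM in roots at 11 days and no count in 3 stem libraries, so it was at least 14.9-fold higher in roots, with a floor of 3 counts over the stem group. At 24 h it had 98 counts over 6 root libraries and 1 over 4 stem libraries, a ratio of 59.4 (10.4 to 2370), and over all conditions 16 of 22 stem libraries held none. TPP J gene 7490222 showed the reverse, with 4.76, 3.99, 5.15 and 5.19 CPM in roots at 11 days, against 17.2, 18.5 and 24.8 CPM in stems (-2.09 ± 0.20, and -3.48 ± 0.21 at 24 h). SUC8 had 27.6, 64.3, 30.3 and 32.6 CPM in roots at 11 days, against 181, 186 and 165 CPM in stems (-2.21 ± 0.28, and -2.87 ± 0.23 at 24 h). The invertase inhibitor was higher in roots, at 0.85 ± 0.26 and 0.91 ± 0.18, and at 24 h trehalose-phosphate synthase 11 gene 7465995 was higher, at 1.00 ± 0.18. Phosphoglucan, water dikinase, a plastid enzyme of starch, was lower in roots, at -1.38 ± 0.19 and -1.12 ± 0.15.

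Of the pectin members 2 were higher and 4 lower in roots at 11 days, and 2 and 5 at 24 h. Those higher at both times were galacturonosyltransferase-like 7 (gene 7478857), of a family that builds pectin, at 1.92 ± 0.42 and 1.51 ± 0.26, and pectinesterase 53 (gene 18107673), at 1.25 ± 0.20 and 0.90 ± 0.10. Pectinesterase inhibitor 7 was lower in roots, at -1.30 ± 0.35 and -2.10 ± 0.27 and pectin acetylesterase 8 variant X6 at -1.37 ± 0.38 and -1.27 ± 0.24. Both pectinesterase/pectinesterase inhibitor 51 genes were lower in roots, 112328147 at -1.24 ± 0.33 and -1.63 ± 0.26 and 7486096 at -0.85 ± 0.15 and -0.92 ± 0.15. The glycosidases gave 0 higher and 1 lower at 11 days and 1 and 2 at 24 h. Beta-glucosidase-like SFR2 (gene 7468118), which in Arabidopsis remodels chloroplast membrane lipids under freezing, was lower in roots, at -1.26 ± 0.21 and -1.26 ± 0.16. At 24 h beta-galactosidase 1 was higher in roots, at 0.76 ± 0.30, and BoGH3B was lower, at -0.39 ± 0.13, as was glucosidase 2 subunit beta, the 1 call outside the classes, at -0.53 ± 0.11.

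**Figure D5:**
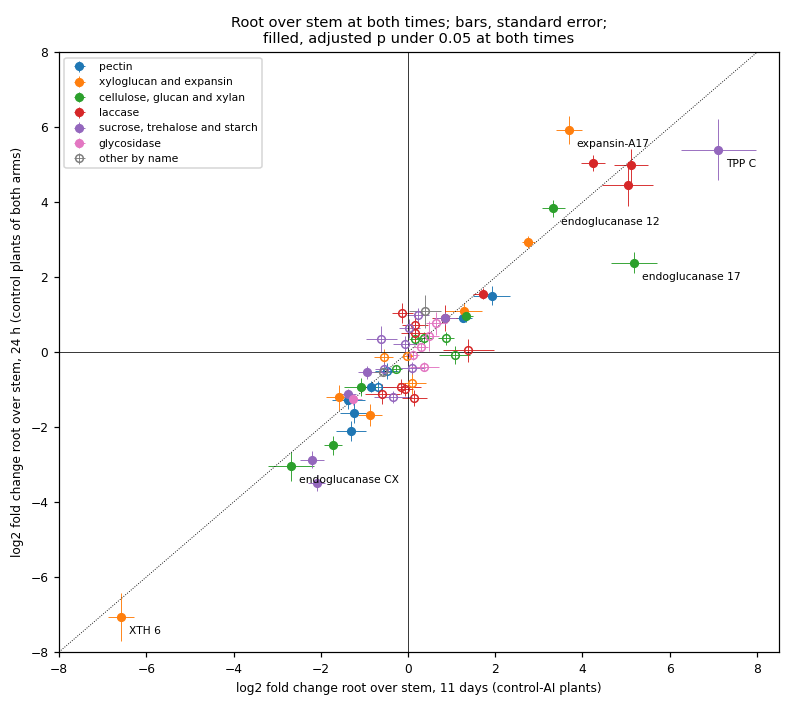
Log2 fold change of each member, root over stem, at 11 days in control-AI plants (x axis) and at 24 h in control plants of both arms (y axis), with standard errors as bars and filled points for members called at both times. The 30 filled points have the same sign on both axes, and for TPP C, which had no count in stems at 11 days, and the other near-absent genes the plotted position depends on the fit's prior count.

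Whether this difference itself moved between the times was tested in control-AI plants, as root over stem at 11 days less root over stem at 24 h. No member was called, beside 0.0156% of 25672 rows. An unadjusted p under 0.05 was found for 11 of 62 members (17.7%). The share was 5.75% of all rows and 8.89% of the other rows of the study's list. The smallest adjusted p of a member was 0.401 and DESeq2 called 0 members. Within one tissue, 11 days was also set against 24 h. In control-AI roots 0 of 62 members were called, beside 0.0% of 23125 rows. The smallest adjusted p of a member was 0.167. Unadjusted p-values under 0.05 were found for 13 members (21.0%), beside 12.8% of all rows and 18.4% of the other rows of the study's list. DESeq2 called 3 of them, beside 1.92% of all rows, namely beta-galactosidase (gene 7497590), laccase-14 gene 18108485 and endoglucanase 12, each with a negative fold change at 11 days. The control-AI roots at 24 h are also part of the comparison of the control arms, so both comparisons share them. There DESeq2 called the same 3 genes lower in control-AE than in control-AI roots, at -1.17, -0.91 and -0.58 on the log2 scale. Whether the change over time stands apart from that difference was not tested.

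In control stems of both arms 0 members were higher and 2 were lower at 11 days than at 24 h (3.4%), where edgeR called 0.872% of 23980 rows, 0.767% as lower, and DESeq2 called 5 members, beside 3.72%. Of the other rows of the study's list edgeR called 1.0%. TPP J gene 7490222 had 20.2 ± 5.3 CPM at 11 days (SD, n = 6) and 54.8 ± 11.8 CPM at 24 h (SD, n = 4), with ranges apart, a log2 fold change of -1.45 ± 0.21 and an adjusted p of 0.0119 by edgeR. Laccase-17 gene 7462337 had 17.7 ± 3.5 CPM at 11 days (SD, n = 6) and 29.8 ± 3.0 CPM at 24 h (SD, n = 4), a log2 fold change of -0.77 ± 0.14 and an adjusted p of 0.032 by edgeR. The laccase call was lost when any 1 of 8 of the 10 libraries was left out, all but replicate 3 of control-AE at 24 h and replicate 3 of control-AI at 11 days, and without the last of these 4 members were called. The control-AI stems at 11 days in this comparison are also the controls of the AI stems, so both comparisons share them, and AI stems at 11 days had 64.8 and 51.7 CPM of TPP J and 36.7 and 45.2 CPM of laccase-17 where control-AI stems had 17.2, 18.5 and 24.8 CPM of TPP J and 13.9, 14.3 and 17.5 CPM of laccase-17.

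Several members are neighbors in the genome and alike in name. The 62 rows lie on 18 chromosome sequences, whose build is not named in the files. The 4 laccase-14 genes stand in a row on one of them, on the same strand, between bases 12025283 and 12069418, with gaps of 2607, 11196 and 18833 bases. A laccase-17 pair, genes 18095593 and 18095594, spans bases 42260075 to 42275875 of another sequence, and a further pair, genes 7460825 and 7462337, spans bases 14550375 to 14570531 of yet another. The pectinesterase/pectinesterase inhibitor 51 genes 7486096 and 112328147 lie 180 bases apart between bases 13110912 and 13115979 of their sequence. Reads that fit more than 1 copy could be split or dropped in counting, so values of these near copies are uncertain and neighbors are not independent of each other.

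The same holds for transcript variants, since 13 of the 62 rows belong to genes with more than 1 row. The cellulose synthase A subunit 2 row (gene 7457156) held 6458 counts over the libraries and its other row held 0, although only 3 of its 4000 exon bases are not shared. Sucrose synthase (gene 18100284), which splits sucrose for wall building, placed 47.3% and 44.6% of its 32205 counts on the 2 member rows. Pectin acetylesterase 8 placed 66.1% of 4148 counts on variant X5 and 24.4% on X6, and TPP C placed 64.2% of 712 counts on its member row. Levels of these rows are therefore levels of a row and not of the gene.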

How the data were processed

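Stem and root polyA RNA was sequenced, and the authors deposited raw read counts per transcript row for each library. Per the labels, FastQC, STAR and featureCounts of Subread were used, with no versions given, and the study's methods name a Populus trichocarpa genome release, while the rows carry NCBI gene numbers, so the build and annotation behind the counts are not settled. The sources used here do not say how reads shared by rows or strands were counted. Product names came from the study's list of transcripts, whose fold changes and p-values were not used.

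Counts of the 50 libraries with at least 1000000 counts were tested with edgeR 4.0.16 in R 4.3.3, using quasi-likelihood F tests, TMM scaling, a low-count filter of 10 counts and 15 in total, and Benjamini-Hochberg adjustment over all rows tested at 0.05. An adjusted p in the text is edgeR's, a value after ± is the standard error of a log2 fold change unless SD is named, and DESeq2 1.42.0 was an alternative. CPM used TMM-scaled library sizes. Counts of members with ranges apart took in members that were not tested, while the shares of all rows beside them cover rows tested. Ratios of rows at or under 3 counts in a group carry exact 95% intervals, which like floors cover counting error only. Other alternatives were no filter, all libraries, another scaling, the replicate number as a block, fits over more groups and leaving out each library. Scripts were tested on simulated data. Members and lists were chosen with earlier results of these data known. Named were members called in a comparison, up to 8, otherwise the 3 with the smallest p, up to 2 per class and direction by fold change between tissues and times, up to 2 per class in AE-roots at 11 days with the 2 among the first 42 genes, and the highest of each class by RPKM. Others are named where a sentence turns on them, chosen after their values were seen. Other pathway genes outside the list and sequences needed a reference and were not analysed here, so the list's other 1936 rows and all rows tested stand in. No 2 of 63 replicate pairs were alike within sampling noise.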

Additional observations from a re-analysis of the deposited data

Results flagged for a closer look

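A library far from the others of its group was looked for in each group of 4 to 6 deep libraries, with Dixon's 95% limit on the gap over the range. Of 192 groups tested over 48 members 15 held such a library. The limit is set to let through about 1 in 20 for independent, normally distributed values. CPM were used without a logarithm and the members share libraries, so no excess is read from this count. AE stems at 11 days held 7 of them.

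Replicate 1 of AE stems at 11 days was the highest of its group for beta-galactosidase 1 (gene 18096747) at 740.0 CPM, against 143 to 257 CPM in the others. It was also highest for beta-galactosidase (gene 7497590) at 383.0 CPM, against 60.9 to 124 CPM, and for zeatin O-xylosyltransferase at 14.8 CPM, against 0.0 to 2.0 CPM. Other libraries stood apart in the same group. Replicate 5 had 67.2 CPM of cellulose synthase A subunit 3 (gene 7482283), against 25.1 to 30.8 CPM. Replicate 4 had 41.9 CPM of endoglucanase 24 (gene 18102152), against 21.6 to 26.0 CPM. Replicate 6 had 31.1 CPM of XTH 30 (gene 18094116), against 20.1 to 21.7 CPM, and 0.0771 CPM of laccase-7 (gene 18110523), which is 1 count, where the others had none.

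In AE-roots at 11 days, replicate 6 had 129.0 CPM of beta-galactosidase (gene 7497590), against 50.2 to 70.6 CPM in the others. Replicate 3 had 83.6 CPM of XTH 32 (gene 18100141), against 32.2 to 46.7 CPM, and replicate 5 was lowest for XTH 28 (gene 7462652) at 47.9 CPM, against 57.0 to 61.7 CPM. Among AI-roots at 11 days, replicate 3 had 48.7 CPM of phosphoglucan, water dikinase (gene 7496305), against 41.7 to 42.8 CPM, and replicate 5 was lowest for XTH B (gene 7491445) at 177.0 CPM, against 250.0 to 260.0 CPM. Control-AI roots at 11 days gave the remaining 3. Replicate 2 had 64.3 CPM of SUC8 (gene 7467435), against 27.6 to 32.6 CPM, replicate 3 had 18.8 CPM of TPP J (gene 7477093), against 17.4 to 17.5 CPM, and replicate 1 had 5.54 CPM of laccase-17 (gene 7460825), against 4.42 to 4.59 CPM.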

How the results depend on the processing

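No result changed direction while called, under any alternative run. DESeq2 called more members than edgeR in AI stems at 11 days (4, against 0), in control-AI roots over time (3, against 0), in control stems over time (5, against 2), between the control arms in 24-h roots (11, against 7) and for the AE change less the AI change in 11-day stems (1, against 0). Over all rows DESeq2 called 43 in AE-roots at 11 days where edgeR called 1, 336 where it called 3 in AI stems at 11 days, 391 where it called 0 in control-AI roots over time and 969 where it called 209 in control stems over time. In AI stems at 11 days edgeR without its filter gave 3 members, with 230 rows, and its fit of all 4 groups gave 1. Adding the control-AE arm to control-AI roots over time gave 1 member, pectinesterase/pectinesterase inhibitor 51 (gene 7486096), with 286 rows in all. The cause of these differences was not tested.

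Leaving out 1 library gave 0 to 2 members in AI stems at 24 h, 1 to 4 in control stems over time, 0 to 6 between the control arms, 29 to 36 members higher in AE-roots at 11 days, 27 to 33 for root over stem at 11 days and 39 to 45 at 24 h. Where a group had 2 libraries, as in AI stems at 24 h, leaving out 1 sets a single library against the other group and assumes that it varies alike.

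Whether replicate numbers pair the samples could not be decided, since the labels do not say and same-number pairs were few. Such pairs correlated at 0.02 to 0.44 in AE-roots at 11 days, -0.41 to 0.44 in AI-roots at that time and -0.14 to 0.18 between control arms. For root over stem their median was 0.04 at 11 days, against -0.06 for pairs of other numbers, and 0.15 at 24 h, against -0.08. With the number as a block AE stems at 11 days gave 2 members and 351 rows, control stems over time 0 members and 0 rows in 6 of the 10 libraries, where TPP J (gene 7490222) was at -1.62 and laccase-17 (gene 7462337) at -0.83 on the log2 scale, the control arms 3 members and 823 rows, root over stem 24 members at 11 days and 43 at 24 h. No paired analysis was possible for AI stems at 11 days, with 1 shared number, or for differences between changes. Scaling by median of ratios moved the median over all rows by at most 0.03. With 2 libraries in 5 of the groups, a fold has to be large to pass, and a member not called is not shown to be the same.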

Other observations

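The trehalose-phosphate synthase 11 genes and beta-glucosidase BoGH3B were also highest in replicate 1 of AE stems at 11 days, the library that stood apart for both beta-galactosidases. Gene 7493347 had 76.7, 38.5, 22.5, 16.8 and 35.1 CPM over the 5 AE stems, gene 7465995 had 119, 41.3, 38.1, 26.3 and 59.4 CPM and BoGH3B (gene 7478601) had 172, 95.8, 84.7, 64.9 and 47.4 CPM, with replicate 1 given first. These genes were chosen after their values were seen. AI-roots at 11 days carried 17.6 to 50.7 CPM of gene 7493347 and control-AI roots 13.9 to 48.1 CPM.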
